A study of Homo sapiens with 7 samples.

Results

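The genes described here are 9 established transcriptional targets of p53: Cdkn1a, Mdm2, Sesn1, Sesn2, Xpc, Ccng1, Gadd45a, Bax and Btg2. They were chosen by symbol from both deposited tables, 9 of 21779 genes with a symbol, and each symbol had a single row. All 9 passed the filter on low values and were tested among 10661 genes. The libraries came from 4 samples of LX2 cells given PTH, parathyroid hormone, and from 3 samples of LX2 cells given PBS, the saline vehicle. LX2 is an established line derived from human hepatic stellate cells, the fibroblast-like cells that lay down scar in injured liver. PTH acts through a receptor coupled to G proteins, and the series asks how that signal bears on hepatic fibrosis. The sources used here state neither dose nor duration of PTH, nor separate cultures for each library, so each p-value is set against variation among the libraries that could be technical. In such bulk RNA, fewer cells with a transcript and less of it per cell cannot be told apart.

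p53 is a transcription factor that is held at a low level by the ubiquitin ligase MDM2 and accumulates after DNA damage and other stress. It then switches on genes that stop the cell cycle, repair DNA, limit growth signalling or start apoptosis, and it also switches on Mdm2, which closes a negative feedback loop. Many of these genes answer other factors as well, so their transcripts alone do not measure p53 activity.

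The labels name human cells, the submitters' notes name the mouse build mm8, the design text speaks of mice, and every identifier in the tables is a rat gene. Rat symbols are therefore used and no coordinates of the deposited rows are given. Summed FPKM, a count of fragments scaled by transcript length and library size, here added over all rows, lay between 472621 and 509859 in the PTH libraries and between 519845 and 532909 in the PBS libraries. Mitochondrial mRNAs took 0.867, 3.61, 2.40 and 3.03% of that sum in PTH libraries 1 to 4, and 5.78 to 5.90% in the PBS libraries. Of 15 stellate cell markers 12 averaged at least 1 FPKM, among them Timp1, Col1a1 and Vim, while Lrat and Reln were listed at 0 throughout and Acta2 lay between 0.918 and 2.03 FPKM with PTH and between 0 and 1.80 FPKM with PBS. The hepatocyte genes Alb and Ttr and the leukocyte gene Ptprc were listed at 0 in all libraries. Other genes of these lists were present throughout. The hepatocyte marker Tf held 7.75 to 10.5 FPKM with PTH and 6.23 to 8.78 FPKM with PBS. The leukocyte marker Cd14 held 12.5 to 16.7 FPKM with PTH and 13.9 to 19.7 FPKM with PBS. The summed stellate markers stood at 3444 to 3972 FPKM with PTH and at 3341 to 3369 FPKM with PBS, and their part in the results was not tested. Single stellate markers went both ways. Col1a1 (338 to 635 FPKM with PTH, 284 to 298 FPKM with PBS) and Vim were above the PBS range in every PTH library. Timp1 (1682 to 1700 FPKM with PTH, 1758 to 1816 FPKM with PBS), Spp1 and Lox were below it in every PTH library. Summed hepatocyte markers stood at 8.28 to 10.5 FPKM with PTH and 6.64 to 8.78 FPKM with PBS, and leukocyte markers at 12.9 to 18.5 FPKM and 14.5 to 20.5 FPKM. Endothelial markers summed to 1.96 to 5.97 FPKM with PTH and 3.20 to 4.80 FPKM with PBS, and cholangiocyte markers to 3.59 to 7.07 FPKM and 6.62 to 8.70 FPKM.

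Of the 9 genes, 2 rose with PTH, 1 fell, and 6 did not pass the test. Xpc, which recognises DNA damage for nucleotide excision repair, was 1.70-fold higher in the PTH libraries. Sesn2, a stress-induced inhibitor of mTORC1 signalling, was 1.30-fold higher. Btg2, an antiproliferative partner of the deadenylase complex, fell to 13.1 ± 0.558 FPKM with PTH (SD, n = 4), against 24.3 ± 3.82 FPKM with PBS (SD, n = 3). Mdm2 did not pass and averaged 75.7 ± 4.28 FPKM with PTH (SD, n = 4) and 75.9 ± 8.08 FPKM with PBS (SD, n = 3). The share of calls among all tested genes was 11.4%, made up of 3.45% higher and 7.96% lower. The groups did not overlap in 3 of the 9 genes, 2 with PTH above and 1 with PTH below, against 33.4% of all tested genes (12.7% above and 20.8% below). By that measure the 9 genes were close to the background. At an unadjusted p under 0.05 limma had 4 of the 9 genes and 33.9% of all tested genes, and at an FDR under 0.05 in the authors' deposited table it was 3 of the 9 and 23.3%. The median log2 fold change was 0.00 over the 9 genes and -0.04 over all tested genes.

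**Figure D1:**
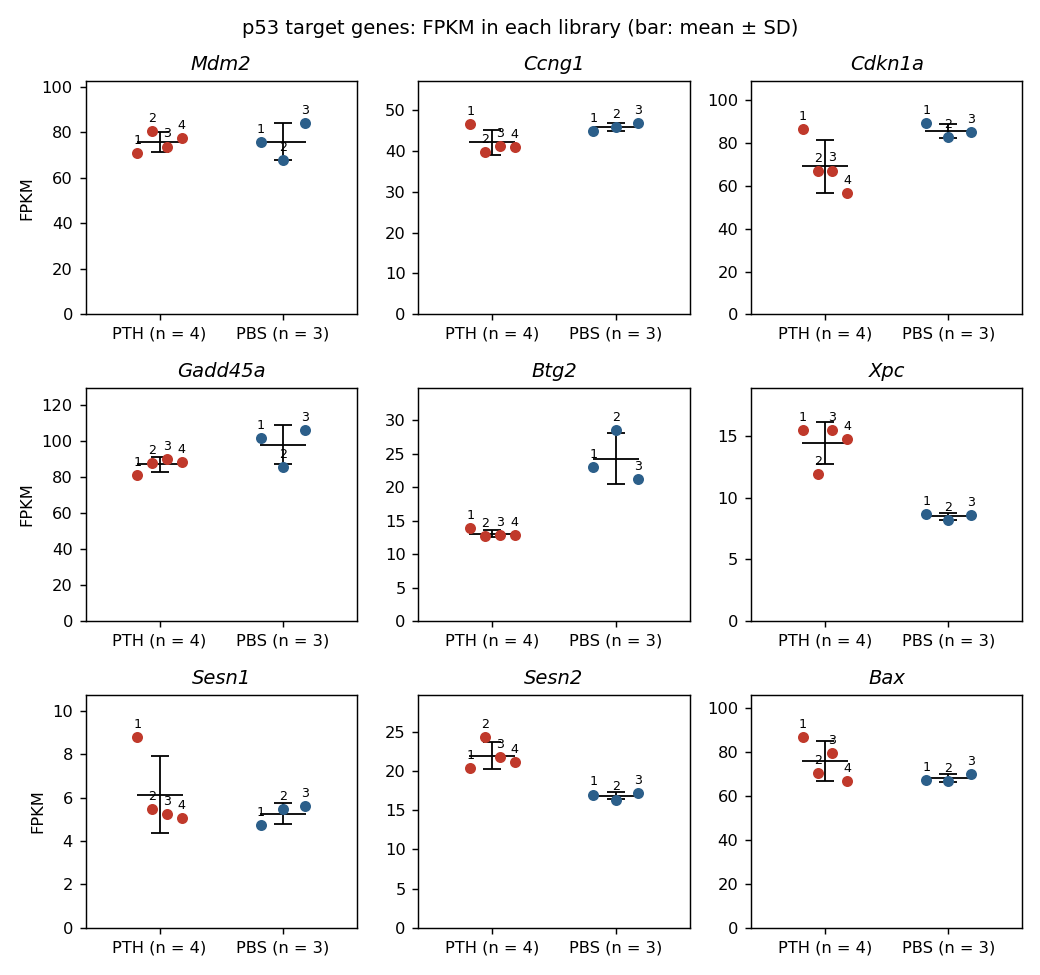
FPKM of the 9 p53 target genes in each library, with PTH (n = 4, red) left of PBS (n = 3, blue). Numbers are library numbers and bars are the mean ± SD. The groups do not overlap for Btg2, Xpc and Sesn2, and PTH library 1 is the highest PTH library for Sesn1, Cdkn1a, Ccng1, Bax, Btg2 and Xpc.

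Promoter sequences of the human counterparts are shown with matches to the cAMP response element core and to p53 sites, beside the values. They come from RefSeq (GRCh38.p14) and span 250 bases before to 50 after the annotated start. A window was given for 8 of the 9 genes, 14 windows in all, and none for GADD45A. Since the tables use rat genes, a human sequence is only a counterpart of the row measured. Btg2 and Xpc are shown as the genes with the largest fall and the largest rise of the 9. Capitals mark TGACG on either strand, the core of the cAMP response element to which CREB-type factors bind. The BTG2 window lies at chr1:203305269-203305568 on the plus strand and holds 1 match, at -210 from the start. The XPC window lies at chr3:14178552-14178851 on the minus strand and holds 2 matches, at -210 and -4 from the start.
BTG2: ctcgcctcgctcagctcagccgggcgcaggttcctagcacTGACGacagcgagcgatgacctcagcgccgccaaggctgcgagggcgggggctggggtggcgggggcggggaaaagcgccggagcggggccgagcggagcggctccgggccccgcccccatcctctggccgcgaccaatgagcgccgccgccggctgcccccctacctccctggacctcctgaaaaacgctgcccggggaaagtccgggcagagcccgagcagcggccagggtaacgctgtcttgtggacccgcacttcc
XPC: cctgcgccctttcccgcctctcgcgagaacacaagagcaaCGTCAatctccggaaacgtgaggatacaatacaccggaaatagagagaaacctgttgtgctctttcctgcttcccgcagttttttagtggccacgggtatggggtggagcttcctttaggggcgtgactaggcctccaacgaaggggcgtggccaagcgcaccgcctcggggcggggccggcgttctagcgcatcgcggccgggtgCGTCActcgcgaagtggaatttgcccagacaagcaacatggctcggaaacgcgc
TGACG occurred in 24.6% of 35116 windows of this length, and the full element TGACGTCA, which contains it, in 1.85% of them and in none of the 14 windows here. TGACG was in 4 of the 14 windows: besides BTG2 and XPC, 1 match lay in the window of BAX and 2 in another window of SESN1, both uncalled, and none lay in the window of SESN2, which was called. The next pair shows the p53 sites. In MDM2 the capitals mark a p53 tandem site, a pair of p53 decamers with no gap, with at most 2 mismatches and the central C and G of each decamer kept. It lies in the window chr12:68808767-68809066 on the plus strand, its first base at -94 from the start, and has 2 mismatches. In SESN1 the capitals mark a p53 decamer with no mismatch in the window chr6:109008939-109009238 on the minus strand, its first base at -49 from the start.
MDM2: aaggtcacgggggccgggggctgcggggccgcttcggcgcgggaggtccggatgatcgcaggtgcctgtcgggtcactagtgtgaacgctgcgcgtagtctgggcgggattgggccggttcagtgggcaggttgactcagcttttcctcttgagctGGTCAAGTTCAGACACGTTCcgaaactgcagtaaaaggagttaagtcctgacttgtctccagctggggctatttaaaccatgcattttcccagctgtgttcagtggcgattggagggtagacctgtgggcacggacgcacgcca
SESN1: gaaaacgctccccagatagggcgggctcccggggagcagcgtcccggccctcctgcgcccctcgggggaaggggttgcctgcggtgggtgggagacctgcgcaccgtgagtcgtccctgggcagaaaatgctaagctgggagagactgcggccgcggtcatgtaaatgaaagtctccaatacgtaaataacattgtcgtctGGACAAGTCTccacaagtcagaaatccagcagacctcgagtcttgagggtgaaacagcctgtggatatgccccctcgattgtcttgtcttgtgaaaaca
The decamer occurred in 6.63% of the 35116 windows and the tandem site in 0.285%. Among the 14 windows here, the decamer was in this SESN1 window alone and the tandem site only in overlapping MDM2 windows. No match to either lay in the windows of CDKN1A, SESN2, XPC, CCNG1, BAX or BTG2. Sequence outside the windows was not searched, so p53 sites farther from the start or inside these genes would be missed. Both motifs are palindromic in form, so 1 search covers both strands, and the rule for mismatches was chosen with the MDM2 site known. A match is a description of letters in a window. The Mdm2 and Sesn1 transcripts, whose human counterparts carry these sites, were not called between the groups.

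The feedback genes come first. Mdm2, the ubiquitin ligase that targets p53, held 70.8, 80.7, 73.8 and 77.4 FPKM in PTH libraries 1 to 4, against 75.6, 67.9 and 84.1 FPKM in PBS libraries 1 to 3. The values overlapped fully, with the PTH libraries inside the range of the PBS libraries. Its log2 fold change was 0.00 ± 0.09 (SE), with a 95% interval of -0.20 to 0.20 and a limma adjusted p of 0.998. Ccng1, a cyclin-like protein that acts in feedback on MDM2, held 46.6, 39.9, 41.2 and 41.0 FPKM in the PTH libraries, against 44.9, 46.0 and 46.8 FPKM in the PBS libraries. PTH library 1 lay among the PBS libraries and the other PTH libraries lay below them. Its log2 fold change of -0.12 ± 0.07 (SE) did not pass, with a limma adjusted p of 0.269.

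Among the genes that slow the cell cycle, Btg2 was called and Cdkn1a and Gadd45a were not. Cdkn1a encodes p21, the inhibitor of cyclin-dependent kinases through which p53 stops the cycle. It held 86.4, 66.8, 67.2 and 56.8 FPKM in PTH libraries 1 to 4, against 89.4, 82.8 and 85.0 FPKM in the PBS libraries. PTH library 1 was at the level of the PBS libraries and the other 3 were below all of them. The log2 fold change was -0.32 ± 0.13 (SE) with a limma adjusted p of 0.122, so it was not called. Without PTH library 1 it was -0.43 ± 0.08 (SE) and passed with a limma adjusted p of 0.0252 (6.43e-05 to 0.306 over the 18 alternatives tried). Gadd45a, a stress sensor that binds p21 and PCNA, held 81.4, 88.2, 90.4 and 88.8 FPKM in the PTH libraries, against 101.9, 85.7 and 106.4 FPKM in the PBS libraries. PBS library 2 lay within the range of the PTH libraries and the other PBS libraries above it, and the log2 fold change of -0.16 ± 0.09 (SE) did not pass (limma adjusted p of 0.217).

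Btg2 (ENSRNOG00000003300) had the smallest p of the 9 genes. It held 13.9, 12.7, 12.9 and 12.9 FPKM in the PTH libraries, against 23.1, 28.6 and 21.2 FPKM in the PBS libraries. All PTH libraries were below all PBS libraries and lay close together, with a coefficient of variation of 4.27% against 15.7% for PBS. The log2 fold change was -0.84 ± 0.11 (SE), with a 95% interval of -1.09 to -0.59 and a limma adjusted p of 0.0097, and the exact permutation test over libraries gave a two-sided p of 0.0571, the smallest it can give. The call was lost without PBS library 1, at -0.87 and a limma adjusted p of 0.0691 (7.63e-06 to 0.161 over the 18 alternatives). In the authors' deposited table Btg2 stands at -0.89 on the log2 scale (FDR of 0.000651).

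Xpc (ENSRNOG00000008274) rose, with every PTH library above every PBS library. It held 15.5, 11.9, 15.4 and 14.7 FPKM in the PTH libraries, against 8.67, 8.16 and 8.59 FPKM in the PBS libraries. PTH library 2 was the lowest of its group and still above all PBS libraries. The log2 fold change was 0.69 ± 0.11 (SE), with a 95% interval of 0.44 to 0.95, a limma adjusted p of 0.0187 and a two-sided exact permutation p of 0.0571. The adjusted p was 0.072 without PTH library 3 and 0.113, 0.094 and 0.0713 without PBS library 1, 2 or 3, so the call was lost each time, with log2 fold changes of 0.66, 0.71, 0.67 and 0.70. The limma adjusted p lay between 4.9e-06 and 0.476 over the 18 alternatives. In the authors' deposited table Xpc stands at 0.76 on the log2 scale (FDR of 0.000651).

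Genes of proteins that act with XPC in repair are given for comparison. Rad23b, a partner in its complex, held 127.9, 166.2, 140.9 and 141.2 FPKM in the PTH libraries, against 170.2, 177.0 and 172.7 FPKM in the PBS libraries, with a limma adjusted p of 0.0751. Every PTH library was below every PBS library, but the gene was not called. Cetn2, the centrin of the complex, overlapped between the groups, and Ddb2, which hands ultraviolet lesions to XPC, stood between 1.49 and 2.88 FPKM with PTH and between 1.80 and 2.39 FPKM with PBS.

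The sestrins restrain mTORC1 under stress, and 1 of the 3 was called. Sesn2 (ENSRNOG00000042785) held 20.4, 24.3, 21.8 and 21.1 FPKM in the PTH libraries, against 16.98, 16.3 and 17.2 FPKM in the PBS libraries. Every PTH library was above every PBS library. The log2 fold change was 0.36 ± 0.08 (SE), with a 95% interval of 0.17 to 0.55, a limma adjusted p of 0.0391 and a two-sided exact permutation p of 0.0571. The call was lost without the variance trend (limma adjusted p of 0.0512), without PTH library 3 or 4 (limma adjusted p of 0.108 and 0.062) and without PBS library 1, 2 or 3 (0.162, 0.129 and 0.1), with log2 fold changes of 0.34 to 0.37, and the adjusted p lay between 3e-05 and 0.171 over the 18 alternatives. In the authors' deposited table Sesn2 stands at 0.38 on the log2 scale (FDR of 0.00491).

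Sesn1, the sestrin first described as a p53 target, held 8.81, 5.46, 5.24 and 5.05 FPKM in the PTH libraries, against 4.72, 5.47 and 5.61 FPKM in the PBS libraries. PTH library 1 alone was high, and the other PTH libraries lay within the range of the PBS libraries. The log2 fold change of 0.16 ± 0.18 (SE) had a limma adjusted p of 0.566, and without PTH library 1 it was 0.00 with an adjusted p of 0.993. Sesn3, the sestrin driven by FOXO factors, held 12.1 to 14.3 FPKM with PTH and 10.9 to 11.6 FPKM with PBS. Its groups did not overlap, but it was not called (limma adjusted p of 0.211). The difference between the sestrins in their response was not tested beyond the ratio of Sesn2 to Sesn1 in each library, which averaged 3.78 ± 0.984 with PTH (SD, n = 4) and 3.22 ± 0.331 with PBS (SD, n = 3), with a two-sided exact permutation p of 0.571.

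Bax, which permeabilises the outer mitochondrial membrane in apoptosis, held 86.9, 70.3, 79.7 and 66.6 FPKM in the PTH libraries, against 67.4, 66.7 and 70.1 FPKM in the PBS libraries. PTH libraries 1 to 3 were above the PBS libraries and PTH library 4 was just below them. The log2 fold change was 0.15 ± 0.10 (SE) with a limma adjusted p of 0.311. Bcl2l1, which encodes the Bax inhibitor Bcl-xL, held 17.6, 17.7, 16.8 and 14.1 FPKM in the PTH libraries, against 12.4, 13.8 and 13.4 FPKM in the PBS libraries, and was not called (limma adjusted p of 0.080). The ratio of Bax to Bcl2l1 averaged 4.59 ± 0.418 with PTH (SD, n = 4) and 5.17 ± 0.294 with PBS (SD, n = 3), with a two-sided exact permutation p of 0.114.

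**Figure D2:**
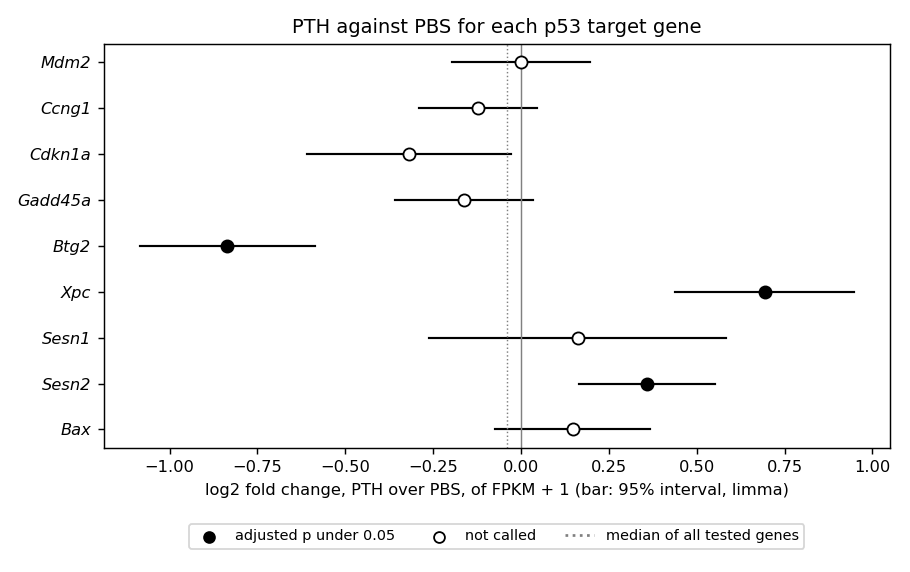
Log2 fold change of FPKM + 1, PTH over PBS, for each of the 9 genes, with the 95% interval from limma. Filled points passed at an adjusted p under 0.05 and the dotted line is the median of all tested genes, -0.04. Btg2 lies at -0.84, Xpc at 0.69 and Sesn2 at 0.36.

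Levels per length could be ordered across the 9 genes by their listed FPKM. The species and annotation behind these values are not settled, so levels of different genes may not be comparable. In the PTH libraries Gadd45a stood highest at a mean of 87.2 FPKM, followed by Bax, Mdm2 and Cdkn1a, whose ranges overlapped from one gene to the next. Ccng1 at 42.2 FPKM and Sesn2 at 21.9 FPKM were each apart from their neighbours, Xpc and Btg2 overlapped at 14.4 and 13.1 FPKM, and Sesn1 was lowest at 6.14 FPKM. In the PBS libraries Gadd45a was again highest at 98.0 FPKM and overlapped Cdkn1a, and Sesn1 lowest at 5.27 FPKM, while Btg2 stood above both Sesn2 and Xpc with no overlap. Gadd45a exceeded 91.1% and Sesn1 21.9% of the tested genes in mean level.

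The ratio of one transcript to another within a library does not depend on the scaling of that library. Xpc over Btg2 was 1.11, 0.937, 1.1999 and 1.15 in PTH libraries 1 to 4, against 0.376, 0.286 and 0.404 in the PBS libraries. The ratio was above 0.9 in every PTH library and below 0.5 in every PBS library. Xpc was higher and Btg2 lower in every PTH library than in every PBS library, so their ratio had to separate the groups. The two-sided exact permutation p, 0.0571, the smallest possible, was thereby fixed and adds no support. This pair was chosen after its values were seen. The summed level of the 9 genes overlapped, at 430.8, 400.2, 407.6 and 384.3 FPKM in the PTH libraries, against 432.8, 407.7 and 445.1 FPKM in the PBS libraries.

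**Figure D3:**
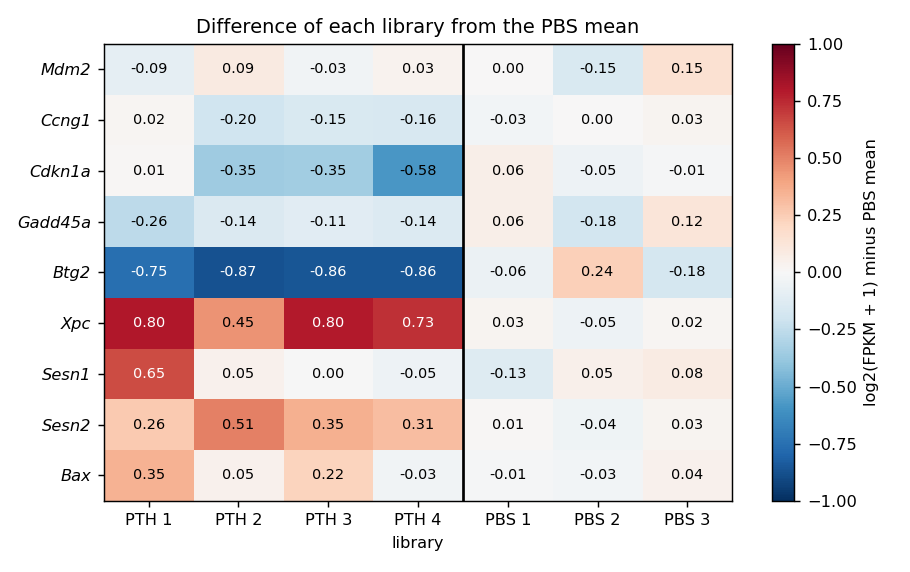
Difference of log2(FPKM + 1) from the PBS mean for each gene (rows) and library (columns, PTH left of PBS), in red where above and blue where below. PTH library 1 departs from the other PTH libraries, with Sesn1 at 0.65 and Cdkn1a at 0.01, where PTH libraries 2 to 4 have Cdkn1a at -0.35, -0.35 and -0.58.

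PTH library 1, the library with the smallest mitochondrial share, was the highest PTH library for Cdkn1a, Ccng1, Sesn1, Bax, Btg2 and Xpc and the lowest for Mdm2, Gadd45a and Sesn2. With this share added to the limma model the 9 genes did not pass, and 0.00938% of all tested genes, a single gene, did. The log2 fold changes were then -1.01 for Btg2, 0.60 for Sesn2, 0.35 for Xpc and -0.89 for Cdkn1a, with adjusted p of 0.161, 0.171, 0.476 and 0.143. The shares of the groups do not overlap, so the covariate and PTH cannot be told apart.

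Fold changes in these libraries also varied with transcript GC content, taken from the human counterparts as the median over their protein-coding GENCODE transcripts. The tested genes were put into 5 bins of equal size. Among 1887 genes with the lowest GC content the median log2 fold change was -0.26, and among 1887 with the highest it was 0.14. The Btg2 and Xpc counterparts had GC contents of 50.3 and 52.6%, in GC bin 3 of 5, where the median was -0.04. After a correction for GC content, 3 of the 9 genes were called: Btg2 at -0.79 (limma adjusted p of 0.0083), Xpc at 0.71 (0.0122) and Cdkn1a at -0.38 (0.0332). The share of calls over the 9433 genes with a GC content was again 11.4%. Sesn2, with a counterpart at 59.5% in bin 5, moved to 0.27 and lost its call (limma adjusted p of 0.106), and Mdm2, with a counterpart at 41.2% in bin 1, moved to 0.23 (0.0636). This correction was chosen after the data were seen.

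**Figure D4:**
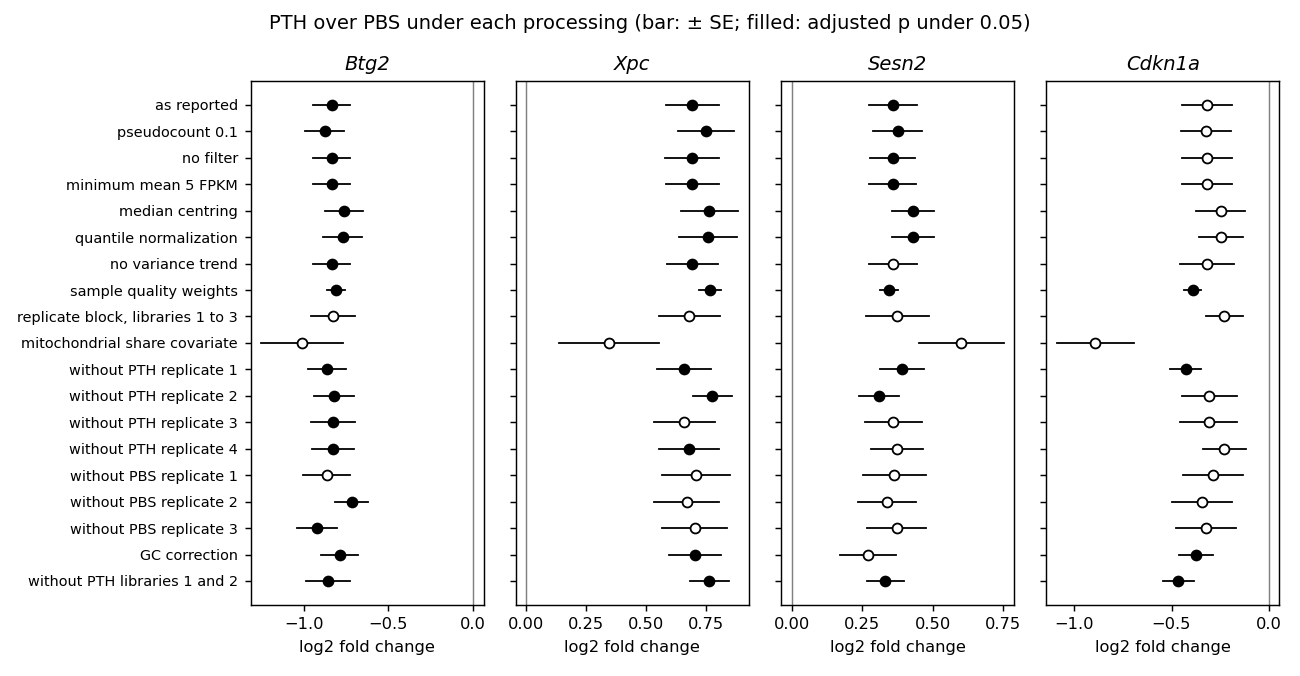
Log2 fold change, PTH over PBS, ± SE for Btg2, Xpc, Sesn2 and Cdkn1a under each processing alternative (rows). Filled points have an adjusted p under 0.05. Btg2 stays between -1.01 and -0.72 and Xpc between 0.35 and 0.78, and Cdkn1a stays below 0 with 4 alternatives called.

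Other genes of the pathway are given from 4 lists: further p53 targets, regulators of p53 and DNA damage kinases, relatives of the 9 genes, and cell cycle genes. Limma calls made up 9.30, 8.57, 25 and 5.56% of their tested genes in that order, against 11.4% of all tested genes. Among 43 tested further p53 targets limma called 0 higher and 4 lower, with 4 higher and 13 lower at an unadjusted p under 0.05, and the median log2 fold change was -0.14. All 10661 tested genes also leaned to lower values, with 1300 higher and 2310 lower at an unadjusted limma p under 0.05. Plk2, a polo-like kinase induced by p53 and by growth signals, held 54.2, 58.5, 60.6 and 64.2 FPKM in the PTH libraries, against 106.3, 106.6 and 101.7 FPKM in the PBS libraries. All PTH libraries were far below all PBS libraries, and the call of Plk2 (log2 fold change of -0.81 ± 0.07 (SE), limma adjusted p of 0.002) stood whichever library was left out. With the mitochondrial covariate the call of Plk2 was lost, at -0.62 and a limma adjusted p of 0.134. The death receptor genes Fas and Tnfrsf10b also fell, at log2 fold changes of -0.83 and -0.48 (limma adjusted p of 0.0191 and 0.0471). The call of Fas was lost in 6 of 17 alternatives and that of Tnfrsf10b in 13 of 18. Pmaip1, which encodes the BH3-only protein Noxa, held 52.2 to 58.5 FPKM with PTH and 61.4 to 65.1 FPKM with PBS and did not pass (limma adjusted p of 0.0799).

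Among 35 tested regulators of p53 and DNA damage kinases 1 rose and 2 fell, with a median of -0.09. Usp7, the deubiquitinase that stabilises both MDM2 and p53, fell to 41.4 ± 6.72 FPKM with PTH (SD, n = 4), against 57.4 ± 1.68 FPKM with PBS (SD, n = 3). Its limma adjusted p was 0.0443. Hipk2, a kinase of p53, fell by 0.56 on the log2 scale (limma adjusted p of 0.0402). Ppp1r13l, which encodes the inhibitor iASPP, rose by 0.38 (limma adjusted p of 0.049). All of these calls were near the threshold. Of the 18 alternatives, 9 lost the call of Hipk2, 10 that of Usp7 and 10 that of Ppp1r13l. For Usp7 and Ppp1r13l the sign turned in 1 more. Mdm4, the Mdm2 homolog that restrains p53, held 16.8 to 20.2 FPKM with PTH and 20.4 to 24.1 FPKM with PBS and was not called (limma adjusted p of 0.154). The kinase genes Atm and Chek2 were not called either.

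The relatives of the 9 genes moved both ways, with 1 of 20 tested higher and 4 lower and a median of 0.03. Btg1 and Btg3, close relatives of Btg2 with the same antiproliferative domain, also fell (limma adjusted p of 0.0277 and 0.0097). Of the 18 alternatives, 6 lost the call of Btg1 and 4 that of Btg3, and for Btg1 the sign turned in 1 more. Btg1 held 64.0, 102.3, 80.4 and 80.3 FPKM in the PTH libraries, against 133.8, 136.4 and 131.8 FPKM in the PBS libraries, and Btg3 held 17.2, 19.7, 18.6 and 20.1 FPKM, against 31.2, 30.6 and 28.1 FPKM. The more distant members Tob1 and Tob2 overlapped between the groups and were not called, at 0.09 and -0.02. In the Gadd45 family, Gadd45b rose to 38.1 ± 4.73 FPKM with PTH (SD, n = 4), against 24.5 ± 0.453 FPKM with PBS (SD, n = 3). Its limma adjusted p was 0.0187, and 6 of the 18 alternatives lost the call. Gadd45g, at 0.51 (limma adjusted p of 0.0614), and Gadd45a did not pass. Among the Bcl-2 relatives of Bax, the BH3-only gene Bid and the effector-like gene Bok fell by 0.57 and 0.42 on the log2 scale (limma adjusted p of 0.0149 and 0.0284). Their calls were lost in 5 and 7 of the 18 alternatives. Bak1, Bad, Bcl2l2 and Bcl2 were not called, at 0.03, 0.38, 0.26 and -0.65 (limma adjusted p of 0.752, 0.0616, 0.131 and 0.188). Cdkn1b, which encodes p27, and Ccng2 overlapped between the groups and were not called.

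Cell cycle genes that p21 is known to repress gave 1 higher and 0 lower calls by limma among 18 tested, with 2 higher and 2 lower at an unadjusted p under 0.05 and a median of 0.04. Aurka, a mitotic kinase gene, rose to 44.0 ± 2.02 FPKM with PTH (SD, n = 4), against 34.7 ± 1.30 FPKM with PBS (SD, n = 3). Its limma adjusted p was 0.0311, and 7 of the 18 alternatives lost the call. Cdk1 held 170.8 to 183.5 FPKM with PTH and 179.5 to 191.7 FPKM with PBS, and Ccnb1 and Plk1 likewise overlapped. Over the 4 lists 3 genes were higher and 10 lower among 116 tested, against 11 higher and 6 lower after median centring and 11 higher and 7 lower after quantile normalization. Over all tested genes 368 were higher and 849 lower, against 593 and 557 after median centring. When a PTH library was left out, list calls numbered 14, 32, 2 and 7 for libraries 1 to 4. When a PBS library was left out, they numbered 1, 1 and 3. Without PTH library 2, 25.8% of all tested genes were called.

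**Figure D5:**
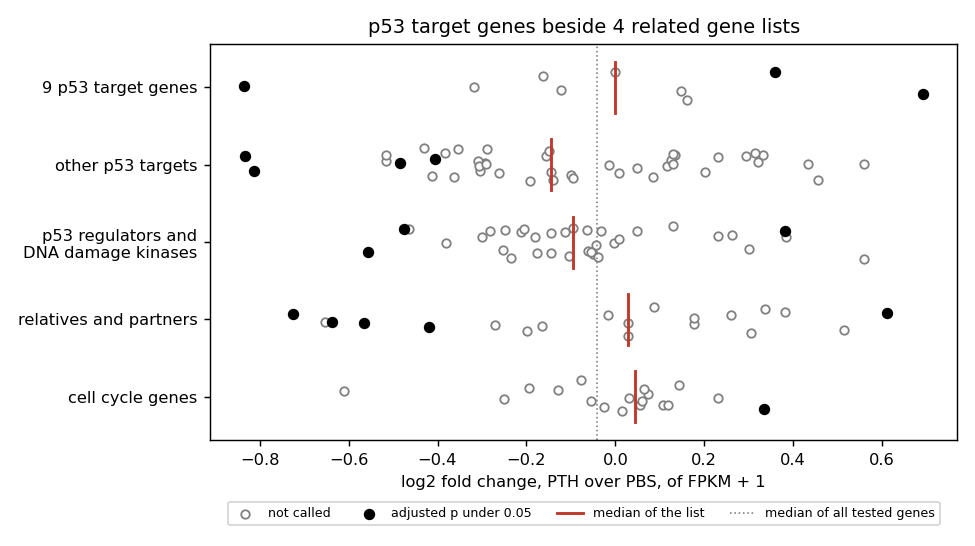
Log2 fold change, PTH over PBS, of the 9 p53 target genes and the tested genes of 4 related lists (1 point a gene, scattered vertically). Filled points passed at an adjusted p under 0.05, red bars are list medians, and the dotted line is the median of all tested genes. The medians lie between -0.14 and 0.04.

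The genes whose levels ran most like those of the called genes over the 7 libraries are given as a description, since all of them share the step between the groups. For Btg2 they were Nfkbia, which encodes the inhibitor of NF-kB, the chemokine gene Cx3cl1 and the deubiquitinase gene Usp46, with Pearson r of 0.992, 0.991 and 0.990. Nfkbia held 94.4, 93.0, 86.5 and 90.5 FPKM in the PTH libraries, against 134.0, 146.7 and 126.7 FPKM in the PBS libraries, with PBS library 2 highest as for Btg2. For Xpc they were Actn1, a cytoskeletal actinin gene, LOC100909840 and Racgap1, a cytokinesis gene, with r of 0.991 each, and LOC100909840 was listed at 0 in the PBS libraries. For Sesn2 they were Pik3r2, a regulatory subunit gene of phosphoinositide kinase, Tsnax and Ten1, with r of 0.987, 0.983 and 0.983.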

How the data were processed

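RNA sequencing libraries of 4 samples given PTH and 3 given PBS were compared. The authors deposited FPKM values of each gene in every library, per the file headers, split by direction into 14913 rows (higher) and 7149 rows (lower), with their own log2 fold change, p-value and FDR. In the table of higher genes the deposited log2 column was checked only as a score, since 1 finite value lies outside the usual range. The submitters' processing notes list Bowtie 0.12.2 and the build mm8 without saying how they were used. The program behind the FPKM, the annotation and the scaling are not stated in any label or header read here. Depth in reads is unknown.

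Where a symbol repeated, the row with the highest mean was used. Genes averaging at least 1 FPKM were tested on log2(FPKM + 1) with limma 3.58.1 in R 4.3.3 (variance trend, two-sided, no covariate) with calls at an adjusted p under 0.05 (Benjamini-Hochberg over 10661 genes). Fold changes on this scale understate changes of low genes. A fold is a ratio of mean FPKM. For single values the exact permutation test ran through 35 assignments of libraries. The test was tried on simulated data. Alternatives were another pseudocount, other filters, median centring, quantile normalization, no variance trend, sample weights, a replicate block, a mitochondrial covariate and leaving out each library, with GC correction and leaving out PTH libraries 1 and 2 added after the data were seen. The genes and lists were chosen with earlier results of these data known. All 9 genes are named, with up to 6 called genes of each list by smallest p, their family members, and the 3 genes most alike by Pearson r for each called gene. Col1a1, Vim, Timp1, Spp1, Lox, Acta2, Lrat, Reln, Alb, Ttr, Tf, Ptprc, Cd14, Pmaip1, Ddb2, Mdm4, Atm, Chek2, Cdk1, Ccnb1 and Plk1 lie outside this rule. Some genes of the lists are not reported here.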

Additional observations from a re-analysis of the deposited data

Results flagged for a closer look

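PTH library 1 was an outlier among the PTH libraries for Sesn1 and Btg2, by Dixon's criterion applied to the PTH values of 22 genes that share 4 libraries. Chance marks about 1 in 20 such groups. For Sesn1 it held 8.81 FPKM, against 5.05 to 5.46 FPKM in the other PTH libraries, a gap of 0.892 of the group's range. For Btg2 it held 13.9 FPKM, against 12.7 to 12.9 FPKM in the other PTH libraries, a gap of 0.855 of the range, with the lowest PBS library at 21.2 FPKM.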

How the results depend on the processing

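Among the 9 genes 3 were called, and 3 as well with the other pseudocount, without a filter, at a minimum mean of 5 FPKM and after median centring, quantile normalization or GC correction. The count was 2 without the variance trend, 7 with sample quality weights, 0 with the mitochondrial covariate, and 0 to 4 when a library was left out. Over the 4 lists the 13 calls became 80 with sample weights, 0 with the covariate, 36 without PTH libraries 1 and 2, and 1 to 32 when a library was left out. Over all genes the 1217 calls became 765 without a filter, 625 without the variance trend, 7417 with sample weights, 1 with the covariate, 2984 without PTH libraries 1 and 2, and 28 to 2750 when a library was left out. The cause was not tested, but leaving out a library also lowers the number of samples.

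Replicate numbers did not pair the libraries: deviations of same-numbered libraries correlated at -0.0078, 7e-04 and -0.0323 across genes. With a replicate block on libraries 1 to 3, calls numbered 0 among the 9 genes, 1 in the lists and 19 over all genes.

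Log2 fold changes that turned sign were mostly of uncalled genes. Mdm2 was at 0.0709 after median centring, 0.0594 after quantile normalization, 0.24 with the covariate, 0.23 after GC correction, and between -0.0765 and 0.0754 when a library was left out. Sesn1 was at -0.66 with the covariate, -0.0258 without PTH libraries 1 and 2, and between -0.0017 and 0.23 when a library was left out. With the covariate Bax was at -0.29 and Gadd45a at 0.0048, and after GC correction Ccng1 was at 0.0527. Among called list genes, Btg1 was at 0.0059, Usp7 at 0.14 and Ppp1r13l at -0.0108 with the covariate. Without read counts, the precision that depth gives each value is unknown.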
